A study of Homo sapiens with 18 samples.

Results

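S100 proteins are small calcium-binding proteins that work as dimers, and 10 of their genes were followed here among the 61487 genes counted in each library. The genes are S100A2, S100A4, S100A6, S100A8, S100A9, S100A10, S100A11, S100A13, S100A14 and S100A16. The set was chosen by the S100A9 footprint counts, near 0 in sgControl cells and well above in sgDAMP cells, so that contrast is given below as a description, with no test. The cells are NCI-H1975, an established lung adenocarcinoma line, in 3 conditions. Scramble cells and sgControl cells (CRISPR control) are controls, and sgDAMP cells carry a CRISPR knockout of DAMP, the peptide that the series assigns to the lncRNA gene DSP-AS1. Each condition has 3 libraries of poly(A) mRNA and 3 of footprints, the RNA stretches protected by ribosomes, from cells treated with 100 µg/ml cycloheximide, which halts elongating ribosomes. The labels do not say whether the knockout cells are 1 clone or a pool, or whether libraries come from separate cultures.

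An S100 protein holds a pair of EF-hand motifs, loops that bind calcium, and calcium binding opens a surface that grips a partner protein. S100A8 and S100A9 pair up as calprotectin, which binds zinc and manganese, is abundant in neutrophils and is found in inflamed squamous epithelium. S100A10 no longer binds calcium and sits on annexin A2, S100A11 binds annexin A1, S100A4 binds the heavy chain of non-muscle myosin, and S100A6 binds CACYBP. All 10 genes lie on chromosome 1 of GRCh38, between positions 151982915 (S100A10) and 153634361 (S100A13), and only S100A9 is on the plus strand. The span of S100A8 overlaps S100A7A and the pseudogene S100A15A, and that of S100A13 overlaps S100A1 and CHTOP. The span of S100A4 overlaps S100A5 and the lncRNA gene LOC101928034, and that of S100A6 overlaps the lncRNA gene LOC124904423. How the counting treated strand is unknown here, so counts of these genes may lose or share reads. S100A11 has several pseudogene copies, which makes its counts uncertain in the same way.

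The start regions of S100A8 and S100A9 are shown because their mRNAs rose and fell together from library to library, as described further on. The sequences are the 250 bases before a RefSeq transcription start (GRCh38.p14), read 5′ to 3′ on the gene's strand, with TATAAA, the core of a TATA box, in capitals. S100A9 is at chr1:153357604-153357853, plus strand, and the S100A8 start shown, 1 of its 3, is at chr1:153391074-153391323, minus strand.
S100A9: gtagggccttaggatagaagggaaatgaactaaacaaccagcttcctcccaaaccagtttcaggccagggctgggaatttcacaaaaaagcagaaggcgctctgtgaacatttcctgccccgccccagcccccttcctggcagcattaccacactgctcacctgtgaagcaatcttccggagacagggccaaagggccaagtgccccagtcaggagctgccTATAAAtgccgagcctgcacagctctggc
S100A8: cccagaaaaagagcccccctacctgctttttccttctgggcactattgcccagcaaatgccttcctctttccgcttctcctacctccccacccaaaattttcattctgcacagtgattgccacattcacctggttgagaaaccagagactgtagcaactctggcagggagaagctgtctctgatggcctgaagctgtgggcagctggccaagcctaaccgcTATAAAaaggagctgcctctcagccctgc

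TATAAA begins 29 bases before the start in both genes. S100A4 and S100A13 also have one near a start, 31 and 29 bases before it, as the last 60 bases before those starts show (chr1:153545807-153545866 and chr1:153627506-153627565, both minus strand).
S100A4: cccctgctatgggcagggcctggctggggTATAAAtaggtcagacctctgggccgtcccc
S100A13: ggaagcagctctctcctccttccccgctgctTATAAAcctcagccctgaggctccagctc
On the gene's strand and 25 to 40 bases before the start, TATAAA stood in 4 of the 16 RefSeq start regions of the members and in 2.26% of all 35116 regions. Searched on both strands over 250 bases, it stood in 5 of the 16 and in 10.7% of all. TGANTCA, a form of the AP-1 motif, which reads as a match on both strands at once, stood in 1 of the 16 (S100A2) and in 6.57% of all. TTNNGNAA, a loose form of the C/EBP motif, stood in 7 of the 16, S100A8 and S100A9 included, and in 33.2% of all. These matches describe letters in the sequence and say nothing of binding.

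Gene counts per library ran from 17098397 to 17464782 in sgControl mRNA, 17171514 to 17455799 in sgDAMP mRNA and 10859527 to 12424884 in Scramble mRNA. Footprint libraries held 6845899 to 7840852 (sgControl), 6207783 to 6864945 (sgDAMP) and 1035159 to 1302852 (Scramble), of which protein-coding genes took 78.89% to 79.31%, 76.3% to 76.59% and only 6.37% to 20.16%. The 3 footprint libraries of sgControl differed from each other by no more than sampling noise for most genes, as did those of sgDAMP. Chi-square divided by its degrees of freedom was 0.909 and 0.910 over genes with at least 30 counts without the most variable 1%, and 1.57 and 1 with them. Each of these groups was therefore summed and counted as 1 sample, and its intervals cover counting error only, since PCR reads are not independent molecules. None of the members with at least 30 counts passed the 95% point of 5.99 in this check, the highest being 5.24 in sgControl and 5.40 in sgDAMP. The mRNA libraries differed well beyond counting noise (38.4 and 64.7 on the same measure), and so did the Scramble footprints (16). The knocked-out target DSP-AS1 had 567 footprints in sgControl and 2 in sgDAMP, while its mRNA had 936 and 979 counts (18.0 CPM, SD 1.02, and 18.9 CPM, SD 0.504, n = 3 each). The cells expressed the epithelial keratins KRT7, KRT8 and KRT18 strongly, while the lung lineage markers NKX2-1 and NAPSA had 4 and 41 summed mRNA counts in sgControl and 3 and 23 in sgDAMP, and no footprints in either. In bulk RNA, fewer cells of a type and less RNA per cell cannot be told apart.

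S100A9 mRNA was present at similar levels in both CRISPR groups, while its footprints were nearly absent from sgControl alone. In CPM (counts-per-million of all gene counts), S100A9 mRNA stood at 18.3, 53.6 and 31.3 in the sgControl libraries and at 19.6, 55.6 and 40.3 in the sgDAMP libraries. The groups overlapped almost fully, and the log2 change of sgDAMP against sgControl was 0.05 (SE 0.43, n = 3 against 3, adjusted p = 0.981 by the quasi-likelihood test of edgeR). Its sign turned when any of 4 of the 6 libraries was left out. Footprints of S100A9 numbered 0, 1 and 0 in the sgControl libraries and 40, 49 and 65 in the sgDAMP libraries. The summed counts of 1 and 154 give a ratio of 148 with a 95% counting interval of 26.2 to 5885, and this is the contrast on which the gene was picked.

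Scramble cells, the other control, did not share the near absence. S100A9 had 8, 11 and 9 footprints in the Scramble libraries, whose protein-coding footprints are far fewer. In CPM of all genes these are 6.76, 10.6 and 6.91, within reach of the 6.44, 7.14 and 9.52 of sgDAMP, while sgControl had 0, 0.128 and 0. Scaled in the same way to protein-coding footprints alone, the summed groups were at 53.5 in Scramble, 0.0563 in sgControl and 10.1 in sgDAMP. On both scales sgControl was the lowest group. Whether Scramble and the CRISPR groups come from 1 experiment, prepared and counted alike, is not given, so these cannot be told apart from the condition.

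S100A8, which encodes the partner of S100A9 in calprotectin, was scarce everywhere. Its mRNA counts were 14, 65 and 28 in sgControl, 20, 136 and 59 in sgDAMP and 11, 5 and 4 in Scramble. It had no footprint in the 3 sgControl libraries, 2, 1 and 3 in the sgDAMP libraries, and 8, 12 and 3 in the Scramble libraries. After scaling, the 6 footprints in sgDAMP are 1.92-fold the group floor of 3 counts that a count of 0 allows. That value leaves out the counting error of the 6, and the counting interval of the ratio to sgControl starts at 1.13. S100A8 mRNA averaged 2.07 CPM in sgControl (SD 1.55, n = 3) and 4.12 CPM in sgDAMP (SD 3.37, n = 3). The log2 change was 0.88 (SE 0.64, adjusted p = 0.862, edgeR), and it was 0.053 without replicate 2 of sgDAMP and 1.69 without replicate 2 of sgControl. The groups overlap, and replicate 2 was the highest library of both.

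**Figure D1:**
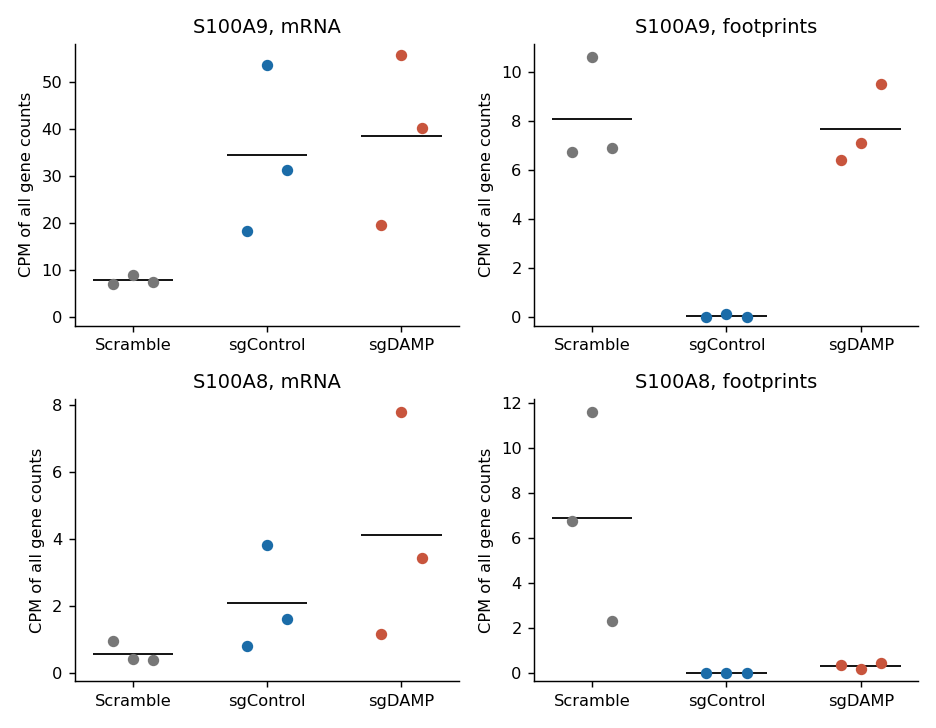
S100A9 (top) and S100A8 (bottom) in CPM of all gene counts, in mRNA (left) and footprints (right), with 1 point per library and a line at the mean of the 3. S100A9 footprints lie between 6.44 and 10.6 CPM in the Scramble and sgDAMP libraries and at most at 0.128 CPM in sgControl, whereas its mRNA overlaps between sgControl and sgDAMP.

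Set against its own mRNA, S100A9 in sgControl was among the coding genes with the fewest footprints. It had 1780 summed mRNA counts and 1 footprint there, a ratio that ranked above only 0.138% of the 8688 coding genes with at least 200 mRNA counts. For these ranks genes with 0 footprints were set to 3. Some of them, such as KRT16 (668 mRNA counts in sgControl), therefore stand above S100A9 although they had fewer footprints for their mRNA. In sgDAMP, with 2003 mRNA counts and 154 footprints, its ratio was at the 31.9 percentile of 9128 such genes, close to those of S100A10 (32.9) and S100A11 (32.5). Of 4987 coding genes with at least 1000 sgControl mRNA counts, 26 had at most 1 sgControl footprint, and S100A9 is 1 of the 6 of these with at least 20 in sgDAMP. In the other group, of 5239 coding genes with at least 1000 sgDAMP mRNA counts, 21 had at most 1 sgDAMP footprint. S100A9 was chosen on these footprint counts, so its rank here restates that choice.

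Several genes of squamous epithelium had more footprints in the same sgDAMP libraries, and for some of them mRNA was at or near 0. Of 10 squamous markers, 6 had 0 footprints in sgControl and 1 had 0 in sgDAMP, where SPRR1B (10), KRT14 (5) and IVL (4) had few. KRT14 had 431 and 156 mRNA counts in sgControl and sgDAMP, and KRT6A had 683 and 801 with 1 and 3 footprints. The summed footprints of the list lay between 5.55 and 6.38 CPM in the sgControl libraries and between 17.6 and 23.0 CPM in the sgDAMP libraries. SPRR3, a cornified envelope protein that lies on chromosome 1 as well, had 0 and 118 footprints with 11 and 20 mRNA counts. KRT13, a keratin of non-cornified squamous epithelium, had 0 and 35 footprints with 0 mRNA counts in every library. The other list members past a 2-fold difference were LCN2, a secreted iron-siderophore carrier (75 and 188 footprints, with 1653 and 1183 mRNA counts), and KRT5, a basal keratin, which was lower (44 and 22). Of the 5 markers with at least 30 summed footprints, 3 were thus at least 2-fold higher and 1 lower, against 7.19% and 5.47% of all such genes. SPRR3 and KRT13 reached that minimum through sgDAMP alone, the group where they are high, so nothing is read from this count. KRT16, a keratin of stressed epidermis, had 668 and 303 mRNA counts and 0 footprints in both groups. In mRNA the summed level of the list was between 47.3 and 88.7 CPM in sgControl and between 45.8 and 51.8 CPM in sgDAMP. Of the leukocyte markers, which go with calprotectin in blood, most were at 0. In sgControl 8 of 10 had 0 footprints and in sgDAMP 7 of 10, with PTPRC, CSF3R, MPO, ELANE and TYROBP at 0 in both. The share of all genes at 0 is not given here, so nothing is read from either list's count at 0. ITGAM, an integrin of myeloid cells, was the exception with 133 and 159 footprints (ratio 1.15, 0.907 to 1.46), and CD14, a monocyte receptor, had 0 and 12. The summed list lay between 5.26 and 6.63 CPM in the sgControl libraries and between 8.59 and 9.02 CPM in the sgDAMP libraries. Whether RNA from other cells or another sample is present in the sgDAMP footprint libraries, and its part in the 154 footprints of S100A9, was not tested.

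The coding genes whose footprints looked most like those of S100A9 include some more squamous genes with little mRNA, and genes of other kinds. At most 5 sgControl and at least 20 sgDAMP footprints were found for 92 other coding genes. The 8 with the most sgDAMP footprints were SPRR3 (118), ZNF629 (91), CRCT1 (84), ACTA2 (66), MAL (59), SPINK5 (57), ZSCAN29 (47) and ZNF674 (45). SPINK5, which encodes a protease inhibitor of the epidermis, had no mRNA counts in either CRISPR group, and MAL, a lipid raft protein, had 0 CPM in sgControl and 0.135 CPM (SD 0.121, n = 3) in sgDAMP. CRCT1, a cornified envelope gene, was at 0.136 CPM (SD 0.147) and 0.212 CPM (SD 0.177). ZNF629, a zinc finger gene like ZSCAN29 and ZNF674, was at 46.0 CPM (SD 13.2) and 59.9 CPM (SD 23.8). Of the 92 genes, 15 had at most 10 mRNA counts in the 6 CRISPR mRNA libraries. At least 1000 were found for 22 of the 92, and 7 had at least as many mRNA counts as S100A9.

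**Figure D2:**
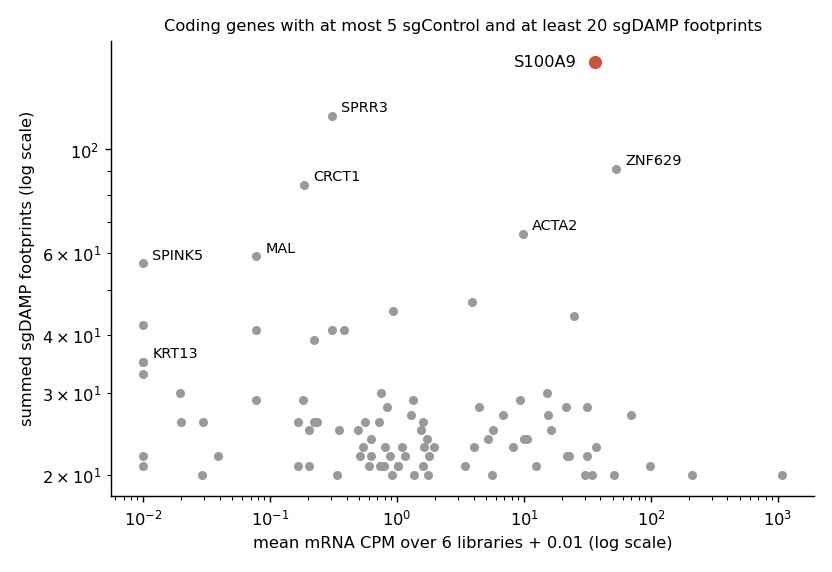
Coding genes with at most 5 summed sgControl footprints and at least 20 in sgDAMP. The horizontal axis is the mean mRNA level over the sgControl and sgDAMP groups (CPM + 0.01, log scale) and the vertical axis the summed sgDAMP footprints (log scale). S100A9, at 154 footprints, is the highest point and has far more mRNA than SPRR3 (118), CRCT1 (84) or SPINK5 (57).

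The annexin partners S100A10 and S100A11 had modestly more footprints in sgDAMP. S100A10 had 681, 753 and 741 footprints in the sgControl libraries and 897, 974 and 1053 in the sgDAMP libraries. S100A11 had 888, 916 and 937 against 1117, 1172 and 1144. All sgDAMP libraries are higher for both genes, also in CPM. The same held in CPM for 47.4% of all genes with at least 30 summed footprints, and the libraries of a group count as 1 sample. After TMM scaling, which sets the typical gene to no change, the ratios were 1.29 (1.22 to 1.37) for S100A10 and 1.20 (1.15 to 1.27) for S100A11.

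Their mRNA went the other way, without passing the test. S100A10 mRNA was at 804, 760 and 777 CPM in sgControl and 786, 639 and 690 CPM in sgDAMP, a log2 change of -0.29 (SE 0.26, adjusted p = 0.862, edgeR). S100A11 mRNA was at 1114, 1122 and 960 CPM in sgControl and 922, 675 and 922 CPM in sgDAMP, with a log2 change of -0.49 (SE 0.28, adjusted p = 0.862, edgeR). It was the one member of 9 tested whose groups did not overlap, where 11.1% of all 14032 tested genes did not. Among the partners themselves, annexin A2 (ANXA2) had 8583 and 10948 footprints, a ratio of 1.23 (1.19 to 1.26), and annexin A1 (ANXA1) had 93528 and 104973, a ratio of 1.08 (1.07 to 1.09).

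S100A4 and S100A6, linked to cell motility and to proliferation, behaved alike. S100A4 had 650, 741 and 729 footprints in sgControl and 820, 935 and 887 in sgDAMP, a ratio of 1.20 (1.13 to 1.27). S100A6 had 1493, 1632 and 1606 against 1952, 2221 and 2218, a ratio of 1.30 (1.25 to 1.35). In both genes each sgDAMP library exceeded each sgControl library in CPM, as in 47.4% of all genes with at least 30 summed footprints. Their mRNA varied widely between libraries of the same group. S100A4 mRNA was at 1379, 1437 and 1831 CPM in sgControl and 951, 1834 and 1456 CPM in sgDAMP, and S100A6 mRNA at 5149, 5590 and 6525 CPM and at 3804, 7058 and 5465 CPM. Replicate 1 of sgDAMP was the lowest library and replicate 2 of sgDAMP the highest for both. The log2 changes were -0.24 (SE 0.32) and -0.20 (SE 0.32), with adjusted p = 0.879 and 0.901 by edgeR. Their partners MYH9, the myosin heavy chain, and CACYBP had footprint ratios of 1.38 (1.30 to 1.46) and 0.803 (0.784 to 0.823).

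S100A16, an epithelial member, had the highest footprint ratio after S100A9. It had 143, 193 and 186 footprints in sgControl and 291, 308 and 326 in sgDAMP, a ratio of 1.70 (1.53 to 1.90), and its mRNA log2 change was -0.19 (SE 0.27, adjusted p = 0.891, edgeR). S100A13, which takes part in the release of FGF1 from cells, had 18, 25 and 24 footprints against 30, 26 and 45, a ratio of 1.45 (1.05 to 2). S100A2, which binds p53, had 5, 7 and 6 against 2, 5 and 5, a ratio of 0.641 whose interval of 0.282 to 1.41 includes 1. In mRNA S100A13 changed by -0.17 (SE 0.45) and S100A2 by -0.24 (SE 0.32), with adjusted p = 0.939 and 0.882 by edgeR. S100A14, an epithelial member, had 2 to 10 mRNA counts per CRISPR library and 0 footprints in all 9 footprint libraries, which allows up to 3 per group.

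**Figure D3:**
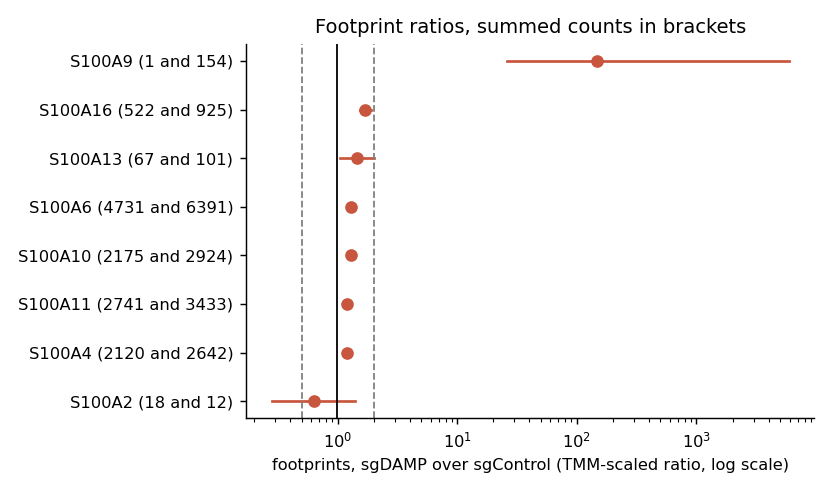
Footprints in sgDAMP over sgControl for the 8 members with at least 30 summed footprints, as TMM-scaled ratios on a log axis with 95% counting intervals. The solid line is the median of all such genes (0.996) and the dashed lines a 2-fold difference. S100A9 lies at 148, 6 members lie between 1.20 and 1.70, and S100A2 lies at 0.641.

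Over the list, 7 of the 8 members with at least 30 summed footprints had a ratio above 1, against 49.6% of 14289 such genes, and the list's median ratio was 1.30 against 0.996. One member, S100A9, was at least 2-fold higher, against 7.19% of genes (12.7% in either direction, 5.47% lower), and S100A9 and S100A16 were at least 1.5-fold higher, against 15.7%. The libraries of 7 of the 8 did not overlap and were higher in sgDAMP, against 47.4%. The rule used this contrast, so nothing is read from these counts. In mRNA 0 of 9 tested members passed, as did 0% of the 14032 genes (edgeR, 0 members and 741 genes at an unadjusted p under 0.05, while DESeq2 called 0 members and 21 genes). The members' median mRNA log2 change was -0.20, against 0.03 over all tested genes. Of the other S100 genes, 3 of 11 passed the count filter and 0 changed in mRNA. S100P, an S100 gene outside this cluster, had 380 and 366 footprints (ratio 0.926, 0.800 to 1.07). S100A3, a neighbour of S100A4, had 111 and 157 (1.36, 1.06 to 1.75).

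Footprints relative to mRNA combine these values. The footprint log2 ratio minus the mRNA log2 ratio was 0.52 for S100A4, 0.58 for S100A6, 0.67 for S100A10, 0.76 for S100A11, 0.72 for S100A13 and 0.97 for S100A16, against a median of -0.01 over 10526 coding genes. These lie between the 79.6 and 91.8 percentiles of coding genes. S100A9 stood at 7.16 and S100A2 at -0.39. The footprint side of each value is 1 sample per condition, so no test goes with them.

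Some S100 mRNAs varied together from library to library, as shown by genes chosen after their values were seen. Over the 6 CRISPR mRNA libraries, S100A8 and S100A9 had a Pearson correlation of 0.927, S100A4 and S100A6 of 0.994, and S100A10 and S100A11 of 0.962. S100A13 and S100A16 varied with S100A4 and S100A6 (0.876 and 0.918 with S100A4, 0.914 and 0.911 with S100A6). Between S100A8 or S100A9, S100A4 or S100A6, and S100A10 or S100A11 the values were lower, from 0.682 for S100A6 with S100A9 down to -0.614 for S100A8 with S100A10. S100A6 was the most like S100A4 of all 12113 tested coding genes. The 5 genes most like S100A9 were CENPA (0.987), RTP4 (0.953), NOL12 (0.952), RPS10 (0.949) and NTS (0.946), all at low levels, such as CENPA at 5.82 to 10.1 CPM. These are descriptions over 6 libraries that share the line and differ little in depth.

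**Figure D4:**
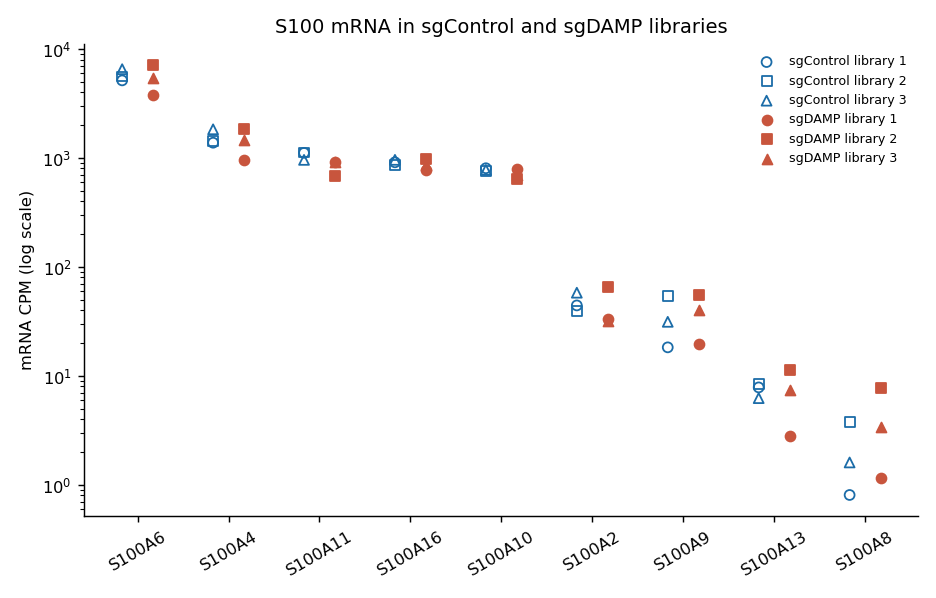
mRNA of the 9 members that passed the count filter in each sgControl (open) and sgDAMP (filled) library, in CPM on a log axis, with 1 marker shape per replicate number. Levels of different genes are not adjusted for length. In sgDAMP, replicate 2 (squares) is the highest library for S100A6, S100A4, S100A9 and S100A8 and the lowest for S100A11, while S100A9 spans 18.3 to 53.6 CPM in sgControl and 19.6 to 55.6 CPM in sgDAMP.

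Scramble mRNA, whose contrast with sgControl the choice of members did not use, had lower S100 levels than sgControl mRNA. All 9 tested members were lower (edgeR, adjusted p from 1.61e-07 for S100A4 to 0.00310 for S100A8), where 33.4% of 16360 genes were lower and 46.1% higher (79.6% in all). With total-count scaling 9 members remained lower, among 3156 genes lower and 9708 higher. S100A8 and S100A13 passed the count filter only with their sgControl libraries, where they are high, so their calls follow in part from the filter. S100A4 fell furthest, from 1549 CPM (SD 246, n = 3) in sgControl to 76.5 CPM (SD 4.6, n = 3) in Scramble, a log2 difference of -5.16 (SE 0.18). S100A6 was at 5755 CPM (SD 702) and 1392 CPM (SD 71.1), a log2 difference of -2.87 (SE 0.17). S100A9 was at 34.4 CPM (SD 17.9) and 7.84 CPM (SD 0.979), a log2 difference of -2.96 (SE 0.37). The groups did not overlap for 8 of the 9, S100A8 being the exception, and for 82.1% of all genes.

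The smallest difference among them was that of S100A11, at -2.12 (SE 0.17), and the members' median was -2.87 against 0.42 over all tested genes. S100A3 was lower too (-3.14, SE 0.16, adjusted p = 4.34e-07, edgeR). Reads that the counting put in no feature made up 42.51% to 43.2% of Scramble mRNA reads and 1.15% to 1.43% of sgControl mRNA reads. Reads counted as ambiguous made up 3.13% to 3.21% and 13.68% to 14.3%. All reads assigned to no gene made up 54.04% to 54.35% and 22.24% to 23.92%. Whether both sets were prepared and counted alike is not given, so the S100 difference between controls cannot be told apart from one between experiments.

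In Scramble cells footprints were high relative to mRNA for 8 of the 9 tested members and lower for none, where 17.1% of 14432 genes were higher and 27.4% lower (44.5% in all, edgeR). S100A13 had the highest value, a log2 ratio of 8.40 (SE 0.28, adjusted p = 4.35e-19), from 20, 17 and 7 mRNA counts and 90, 96 and 25 footprints. S100A8 stood at 6.32 (SE 0.59) and S100A4 at 6.19 (SE 0.32), the latter from 831, 996 and 848 mRNA counts and 1287, 1000 and 460 footprints. S100A13 and S100A8 passed the count filter only through their footprint libraries, where they are high. Their place among the 8 therefore follows in part from the filter. The spans of S100A13, S100A8 and S100A4 overlap other coding genes, so their counts may lose or share reads. Scramble mRNA also had 42.51% to 43.2% of reads in no feature. The part of either in these values was not tested. S100A6 (3.85, SE 0.32), S100A9 (2.90, SE 0.42) and S100A10 (2.66, SE 0.23) followed. S100A11 (1.13, SE 0.22) and S100A16 (0.88, SE 0.23) were also higher, and S100A2 had a log2 ratio of 0.43 (SE 0.84, adjusted p = 0.688). These values are relative to the TMM zero point: the median gene lay at -0.68, and with total-count scaling, which moves it by -2.84, 4 members were higher and 3 lower, and S100A9 was no longer called (0.018, adjusted p = 0.960, edgeR), among 481 genes higher and 13049 lower. Replicate 3 of the Scramble footprints, whose share of coding reads is the lowest, was also the lowest in CPM for S100A2, S100A4, S100A6, S100A8, S100A10, S100A11, S100A13 and S100A16.

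The position of S100 genes among all genes thus differed between the Scramble and CRISPR sets. Footprints come from the coding part and mRNA reads from the whole transcript, so the ratio also depends on the gene. For the ranks that follow, genes with 0 footprints were set to 3. Among coding genes with at least 200 mRNA counts, the footprint-to-mRNA ratio of S100A4 was at the 99.98 percentile in Scramble, 18.7 in sgControl and 18.6 in sgDAMP. S100A6 was at 99.7, 11.9 and 12.55, and S100A16 at 83.55, 7.88 and 11.3. In sgControl every member with enough counts was below the median coding gene, from S100A9 at 0.138 to S100A13 at 49.4, and in sgDAMP every one but S100A13 (57.1) was. S100A8 (15 in sgDAMP) had too few mRNA counts in sgControl and S100A14 had too few throughout.

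**Figure D5:**
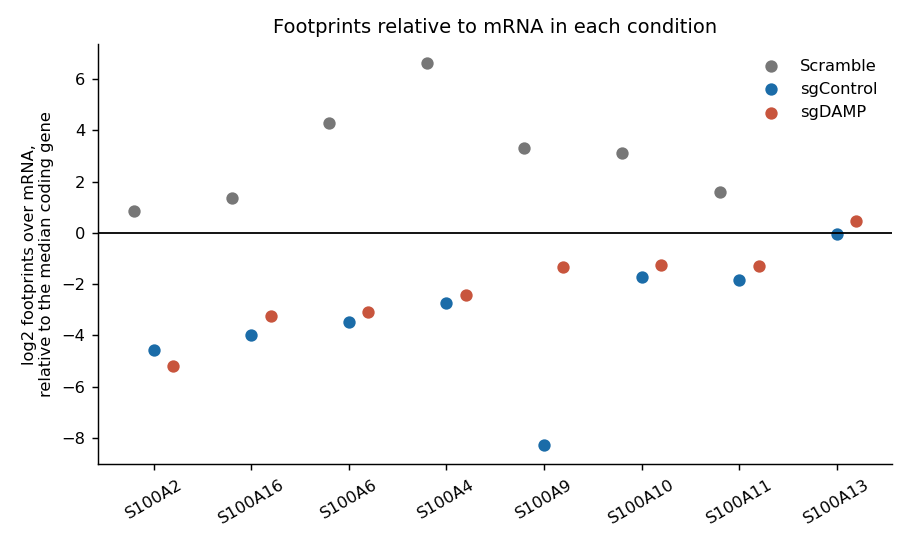
Log2 ratio of footprints to mRNA for members with at least 200 mRNA counts, relative to the median coding gene of the same condition (line at 0), in Scramble (grey), sgControl (blue) and sgDAMP (red). Scramble points lie above 0 for every member that has one, and that of S100A2 rests on only 4 footprints. S100A9 lies at -8.29 in sgControl and -1.33 in sgDAMP, and every other sgControl point lies between -4.58 and -0.04.

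Genes around the S100 proteins were also counted. None of 21 tested binding partners and receptors, 26 other EF-hand genes and 13 regulators of S100A8 and S100A9 passed in mRNA between sgControl and sgDAMP. In footprints, 1 of 19 partners, 3 of 26 EF-hand genes and 3 of 13 regulators were past a 2-fold difference, against 12.7% of all genes. The partner was PLAUR, the urokinase receptor, with 3392 and 141 footprints (ratio 0.0400, 0.0335 to 0.0473). Of 26 EF-hand genes, the penta-EF-hand protein PDCD6 (17 and 46) and the centrin CETN3 (55 and 125) were at least 2-fold higher and EFHD1, a mitochondrial EF-hand protein, was lower (42 and 21). Among regulators, KLF4 (8 and 55 footprints) and FOS (38 and 94) were higher and BRCA1 (153 and 69) lower. KLF4 and PDCD6 passed the minimum of 30 summed footprints with the help of sgDAMP, the group where they are high. Nothing is therefore read from the counts of genes past 2-fold. MYB, just under the minimum of 30 footprints, had 0 in sgControl and 8, 9 and 12 in the sgDAMP libraries. These are 9.29-fold the group floor after scaling, and the counting interval of the ratio to sgControl starts at 7.09. CEBPB, a C/EBP factor that acts on both calprotectin genes, had 5577 and 3975 (ratio 0.685, 0.658 to 0.714). Receptors of calprotectin or its subunits were counted as well: AGER had 0 footprints in both groups and TLR4 0 and 4. BSG had 24179 and 22040 (ratio 0.876, 0.861 to 0.893) and NPTN 557 and 534 (0.922, 0.817 to 1.04).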

How the data were processed

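The 18 libraries hold mRNA or ribosome footprints from the NCI-H1975 line. The authors deposited raw counts of reads per gene for 61487 genes, with 5 closing lines for reads assigned to no gene, which were left out of library sizes (22.24% to 95.82% of reads per library). Per the submitters' processing notes HTSeq 0.11.2, HISAT2 2.1.0, SAMtools 1.10, Trimmomatic 0.30 and edgeR were used, with GRCh38. The annotation release and the strand and multi-mapping settings: not given in the sources used here. Symbols matched 61369 genes. Positions and promoter sequences came from RefSeq (GRCh38.p14), and all 10 members matched. No transcript lengths were used, so levels are not compared between genes.

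Genes were filtered with filterByExpr (minimum count 10), scaled by TMM and fitted over all genes in edgeR 4.0.16 (R 4.3.3), with its quasi-likelihood test, two-sided, with Benjamini-Hochberg adjustment and a threshold of 0.05. Comparisons were sgDAMP against sgControl mRNA, Scramble against sgControl mRNA, and footprints against mRNA in Scramble. S100A14 did not pass the filter in any of them, the other 9 members did in all. Simulated counts for the first comparison held 100 genes at a log2 change of 1, of which 15 were called, and 100 at 2, of which 90 were. Footprint ratios carry exact Clopper-Pearson 95% intervals. Genes past the fold are those at least 2-fold apart with at least 30 summed footprints. P-values measure the spread between these libraries, which may be technical.

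The members and lists were chosen with earlier results of these data known. Named were all members, up to 4 genes per list (called, by smallest p, or past the fold with most footprints), the 8 coding genes most like S100A9 in footprints and the 5 most like it in mRNA. ANXA1, ANXA2, MYH9, CACYBP, CEBPB, AGER, TLR4, BSG, NPTN, MYB, KRT16, KRT6A, EPCAM, CDH1, SFTPB, ITGAM and CD14 were added after their values were seen. Alternatives were DESeq2 1.42.0 size factors and Wald test, limma 3.58.1 voom, upper-quartile and total-count scaling, other filters, a log2 change of at least 1, a replicate block, a joint fit with all mRNA libraries, and leaving out each library. Same-numbered libraries gave no sign of pairing.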

Additional observations from a re-analysis of the deposited data

How the results depend on the processing

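Between sgDAMP and sgControl mRNA, no member was called under any alternative, while genes called numbered 14 with no filter, 21 with DESeq2, 1 in the joint fit, and 0 to 6 with each library left out (6 without replicate 3 of sgControl). Leaving out libraries moved the S100A9 log2 change between -0.30 and 0.55 (-0.24 and -0.07 without replicates 1 and 3 of sgControl, -0.30 and -0.03 without replicates 2 and 3 of sgDAMP), S100A8 between 0.053 and 1.69, S100A6 between -0.43 and 0.027, and S100A13 between -0.65 and 0.21. For footprints against mRNA in Scramble, total-count scaling called 13530 genes and gave 0.018 for S100A9 (adjusted p = 0.960, edgeR), -2.42 for S100A2, -0.13 for S100A10, -1.65 for S100A11 and -1.86 for S100A16. With at least 10 counts in every library, which tests fewer genes, 1143 genes and 3 members were called and S100A16 stood at -0.10. With each library left out, 6 to 8 members were called. For footprints of sgDAMP against sgControl, total-count and protein-coding scaling each put 2 members past 2-fold, S100A16 joining S100A9. A fold of 1.5 also gave 2 members, with 4140 genes. Without replicate 2 of sgControl, S100A9 has 0 sgControl footprints and no ratio. The cause of these shifts was not tested. Total-count scaling moved the median gene by 0.14, -2.84 and 0.83 in the 3 tests. The 174 alternative values for Scramble against sgControl mRNA kept their direction and side of the threshold.

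Replicate numbers did not pair the samples: same-numbered sgControl and sgDAMP mRNA libraries had deviations correlated at 0.387, -0.217 and -0.425. With a replicate block, 0, 8 and 9 members were called in the 3 tests, as without it, among 0, 4704 and 12378 genes.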

Other observations

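The pattern of S100A9 was less common in the reverse direction. At most 5 sgDAMP and at least 20 sgControl footprints were found for 41 coding genes, against the 92 other genes that follow S100A9. Of the 92, 7 had 0 mRNA counts in the 6 CRISPR mRNA libraries and 15 had at most 10. Of the 41, 1 had 0 and 7 had at most 10. Footprints counted for genes with no mRNA counts therefore occur in both groups.

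Most genes next to the members on chromosome 1 had few or no footprints. PGLYRP4, S100A12, S100A1, S100A5 and TCHHL1 had 0 footprints in both CRISPR groups, S100A7 and S100A7A had 0 and 2 each, and THEM4, a thioesterase gene beside S100A10, had 21 and 26. S100A3, between S100A4 and S100A2, had 111 and 157. S100A5 had mRNA counts of 18, 10 and 17 in sgControl and 9, 8 and 13 in sgDAMP. Among the Scramble footprints CD14 had 38 counts and CYBB, a subunit of the phagocyte oxidase, had 22, against 26 and 5 mRNA counts.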
